A study of Drosophila melanogaster with 6 samples.

Results

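The regions described here are the Su(H) peaks on chromosome arm 3R of Drosophila melanogaster that lie outside the gene complexes named on that arm. They were taken from 1 peak list of 4403 peaks by position alone. Of the 505 peaks on 3R, a peak was left out if its midpoint lay in 1 of 4 windows. These windows were 2480000 to 2830000 and 12480000 to 12800000, which hold the homeotic (Hox) complexes, 15135000 to 15180000, which holds Delta, and 21820000 to 21870000, which holds the Enhancer of split complex. The windows took out 33, 8, 4 and 13 peaks, and 447 peaks remained, which is 88.5% of the arm and 10.2% of the list. Positions are on FlyBase release 5, per the file headers, and count from 1. No annotation of that release was used, so no gene name is attached to a peak below.

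Suppressor of Hairless, Su(H), is the DNA-binding protein through which the Notch receptor acts on transcription. When Notch is activated by a ligand such as Delta, its intracellular domain is released, enters the nucleus and joins Su(H) at target genes. In the absence of the signal, Su(H) works with the adaptor Hairless and co-repressors at the same kind of site. In the fly embryo the pathway is known for restricting neural fate, with the genes of the Enhancer of split complex as its classical targets.

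The study used chromatin immunoprecipitation with sequencing (ChIP-seq) to map this protein, with 3 immunoprecipitated libraries and 3 from input DNA. Both groups came from y; cn bw sp embryos of the stage labelled 0-8, and their sex is unknown. All 6 libraries share the alleles y[1] and oc[R3.2], then cn[1], bw[1] and sp[1] with CG33964[R4.2], Gr22b[1] and Gr22d[1], and finally Rh6[1], GstD5[1], lab[R4.2], LysC[1] and MstProx[1]. Where the stage label gives 0-8, the labels' protocol names a laying period of 8-16 hours, so the age of the embryos is uncertain. Whole embryos mix many cell types, and the antibody was a rabbit polyclonal against an epitope in residues 259 to 594. The peak list names no library, so there is no value per replicate, no spread between libraries and no test between ChIP and input, and the read depth behind each peak is unknown. Each peak carries 1 score from the authors' peak caller, whose scale is not stated and which serves here to describe, rank and filter peaks within this list.

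Most of the 447 peaks were weak and narrow. Their scores ran from 6.89 to 93.48, with a median of 13.52 and quartiles of 10.97 and 18.1. In the other arms (2L, 2R, 3L, 4 and X, 1569 peaks) the median was 13.42 and the quartiles 10.79 and 17.86. The exact 95% binomial interval of the median was 12.83 to 14.13 on 3R and 13.04 to 13.7 on the other arms, so the centres lay within each other's counting error. These intervals treat peaks as independent.

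The upper ends stood farther apart than the centres. No peak on 3R outside the complexes reached a score of 100, whereas 12 peaks on the other arms did, with a maximum of 828.88. The count at 20 or more was 84 peaks (18.8%) on 3R, beside 18.4% of the other-arm peaks. At 50 or more it was 9 peaks (2.01%), beside 3.00% on the other arms. The 45 highest-scoring 3R peaks, the top 10%, scored 27.01 or more and held 25.6% of the summed score, whereas the top 10% on the other arms held 31.9%. The other arms were counted whole, and with its complexes included 3R held 7 peaks at 100 or more and 21 (4.16%) at 50 or more. As peaks are not replicates, these differences were not tested.

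Of the excluded windows, the Enhancer of split window alone held scores beyond the range of the retained peaks. The 13 peaks of the Enhancer of split window had a median score of 100.73 and a maximum of 445.63, and the 4 of the Delta window a median of 34.09. The 33 peaks of the first Hox window had a median of 16.64, and the 8 of the second 13.34, which is close to the rest of the arm. No peak straddled an edge of a window. The retained peak nearest to any edge, 15131702 to 15132006, lay 3.15 kb outside the Delta window with a score of 11.54, and the first peak inside that edge, 15136318 to 15136876, scored 54.27. At the Enhancer of split window the nearest retained peaks scored 16.18 at 113 kb below it and 12.83 at 17.9 kb above it, while the outermost peaks inside scored 100.73 and 20.12.

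Widths ran from 201 to 4985 bp on 3R with a median of 333 bp (exact 95% binomial interval 312 to 359), against 351 bp (339 to 366) on the other arms. Exactly 11 peaks had the smallest width of 201 bp, and 101 (22.6%) were narrower than 250 bp, beside 21.6% on the other arms. At the broad end, 18 peaks (4.03%) reached 1 kb, beside 4.46% on the other arms, and only 1 exceeded 2 kb. Stronger peaks were wider. The Spearman coefficient of score and width was 0.60 over the 447 peaks and 0.60 over the other-arm peaks, a description over peaks that share the same libraries. By score class, the median width on 3R was 260 bp below a score of 10, 318 bp from 10 to under 20, 548 bp from 20 to under 30, 771 bp from 30 to under 50 and 736 bp at 50 or more.

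**Figure D1:**
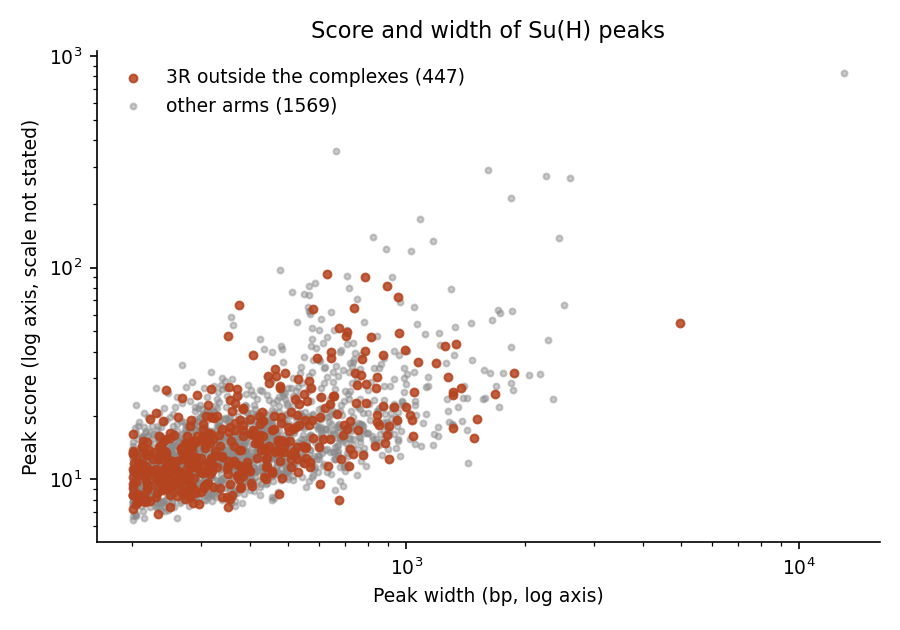
Score against width for each Su(H) peak on logarithmic axes, with the 447 peaks of 3R outside the complexes in red and the 1569 peaks of the other arms in grey. The 3R peaks end at a score of 93.48, and the single red point far to the right is the peak of 4985 bp.

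The strongest peak of the set, 3R 304831 to 305458, scored 93.48 over 628 bp. A weaker peak, 304195 to 304456 with a score of 19.76, lay 374 bp away. The second, 3013571 to 3014353, scored 90.22 over 783 bp and had a neighbour of score 8.41 at 1932 bp. Each of the 2 was thus paired with a single peak of much lower score, although the companion of the first exceeded the upper quartile of the set.

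The next ones stood alone. The peak 17405750 to 17406640 scored 82.07 over 891 bp, with its nearest neighbour 9000 bp away. The peak 12105899 to 12106850 scored 72.27 over 952 bp, and its nearest neighbour was 25953 bp away. At 18222943 to 18223317 a score of 66.48 was reached over only 375 bp, with 73210 bp to the nearest peak. Further single peaks of this rank were 1089932 to 1090667 (score 64.36), 10919820 to 10920399 (63.44) and 19608418 to 19609093 (51.96). The 10919820 peak was the most isolated of these, with 190262 bp to its neighbour.

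Among the 20 peaks of highest score, 13 had no neighbour within 5 kb, 4 belonged to a pair and 3 to larger groups. In the whole set of 447, 226 peaks had no such neighbour and 108 belonged to a pair, and the difference was not tested. With the complexes included, only 8 of these 20 were among the 20 strongest peaks of 3R. The lowest of the 20 scored 38.68 and the first peak below them 38.51, so the list ends without a step. They fell into 14 of the 28 bins of 1 Mb. The 20 had a median width of 784.5 bp and ranged from 352 to 4985 bp. Ranks 10 to 20 included single peaks at 4757641 to 4757992 (score 47.49), 9118755 to 9119456 (47.36), 16419436 to 16420247 (46.83), 16654939 to 16656275 (43.74), 9727939 to 9728928 (40.88), 13430398 to 13431183 (40.58) and 694281 to 694925 (40.02). The peak 25315231 to 25316187 (49.3) had a neighbour at 281 bp. The other 3 of the 20, with scores of 49.71, 42.82 and 38.68, lay together between 25088801 and 25115762 and are described with their runs.

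Of the 10 widest peaks, 2 were among the 20 strongest, which are 4.47% of the set, and 7 scored 20 or more, beside 18.8% of the set. The widest, 7197817 to 7202801, covered 4985 bp with a score of 54.66, rank 8 of the set. Divided by its width, that score came to 1.1 per 100 bp. The same ratio was 17.73 for the narrow peak at 18222943 and 14.89 for the strongest peak. As the scale of the score is not stated, the ratio only sets score beside width and is no measure of binding per length. After the widest came 7174261 to 7176140 (1880 bp, score 31.84), 4517739 to 4519419 (1681 bp, 25.23), 8342328 to 8343838 (1511 bp, 19.35) and 23357103 to 23358586 (1484 bp, 15.71). The last of these scored between the median of the set, 13.52, and its upper quartile, 18.1. The remaining 5 of the 10 were between 1312 and 1380 bp wide and scored 27.05, 43.74, 24.99, 17.52 and 25.84. The median score of the 10 widest was 25.54, and 3 of them scored below 20.

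Spacing along the arm was uneven. The median gap between adjacent peaks was 16.7 kb (442 gaps, leaving out those next to an excluded peak), against 17.6 kb over 1564 gaps on the other arms. The shortest gap on 3R was 51 bp, and 30 gaps were under 200 bp. In all, 139 gaps (31.4%) were up to 5 kb long, the distance used here to chain peaks into runs. At the other end, 85 gaps (19.2%) reached 100 kb, beside 18.0% on the other arms. The longest stretches without a peak were 747 kb from 5065579 to 5812509, 629 kb from 3126887 to 3756008, 563 kb from 25542316 to 26105379, 454 kb from 9119456 to 9573355 and 422 kb from 18425827 to 18847526. Of these, the stretch above 9119456 begins directly at a strong peak (score 47.36), while the other 9 bordering peaks scored between 8.57 and 19.71.

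**Figure D2:**
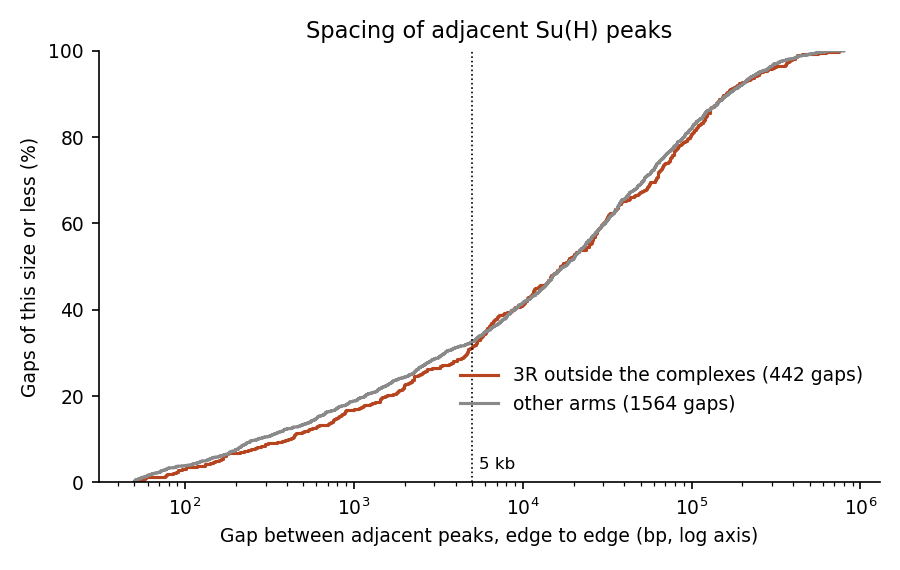
Cumulative share of gaps between adjacent peaks, edge to edge, on a logarithmic axis in bp, for 3R outside the complexes (442 gaps) and the other arms (1564 gaps), with a dotted line at 5 kb. The curves run close together, with medians of 16.7 kb on 3R and 17.6 kb on the other arms.

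A neighbour within 5 kb was found for 221 of the 447 peaks, or 49.4% (exact 95% binomial interval 44.7 to 54.2%). On the other arms the share was 50.6%, so the set as a whole sat at the background. Single arms ranged from 43.1% for 3L to 56.2% for 2L, leaving aside arm 4 with its 5 peaks.

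The strong peaks of 3R had a lower share than the weak ones. A neighbour was present for 43 of 76 peaks below a score of 10 (56.6%, interval 44.7 to 67.9%), for 167 of 336 from 10 to under 30 (49.7%, 44.2 to 55.2%) and for 11 of 35 at 30 or more (31.4%, 16.9 to 49.3%). On the other arms together the values ran the other way, with 42.9% (36.8 to 49.0%), 51.9% (49.0 to 54.7%) and 55.7% (46.1 to 64.9%) in the same classes. In the class of 30 or more, the share was 63.0% on 2L, 67.6% on 2R, 42.5% on 3L and 46.2% on X. On 3L and X it was below that of the middle class (45.7% and 52.3%). Each arm's share at 30 or more exceeded the 31.4% of 3R, but the 3R interval reached 49.3% and so included the values of 3L and X. The exclusion of the complexes bears on this value: over all 3R peaks, complexes included, 26 of 52 peaks at 30 or more had a neighbour (50.0%, 35.8 to 64.2%), which lies among the other arms, from which no complex was taken out. With gaps of up to 1 kb joined, the share at 30 or more was 22.9% (10.4 to 40.1%) on 3R and 32.7% (23.8 to 42.6%) on the other arms. These intervals then overlapped widely, and 3R lay between X with 16.7% and 3L with 25.6%. Below a score of 10 the joined share was 35.8% (23.1 to 50.2%) on 3R and 21.03% (15.5 to 27.4%) on the other arms. The order of the classes thus still ran in opposite directions for 3R outside the complexes and the other arms together. With the complexes included, the joined 3R shares were 35.6%, 32.3% and 33.3% from the lowest class to the highest, and their intervals overlapped. On 3L and X the joined share at 30 or more was below that of the middle class (30.2% and 25.5%). On 2L and 2R it was above. As deposited, the 3R shares with the complexes included still fell, from 55.4% to 51.6% and 50.0%, with overlapping intervals. The size of the fall on 3R, and after joining its steady order, thus depended on leaving out the complexes. The rise at 30 or more on the other arms together depended on 2L and 2R. The difference between 3R and the other arms was not tested, because peaks of 1 list are not replicates.

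**Figure D3:**
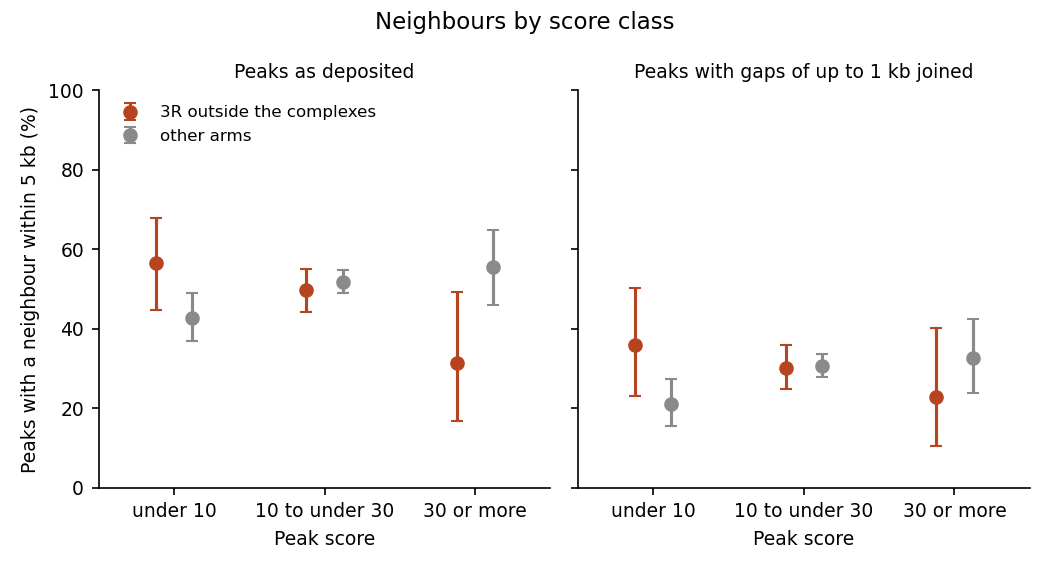
Percentage of peaks with another peak within 5 kb, by score class, for 3R outside the complexes (red) and the other arms (grey), with exact 95% binomial intervals that treat peaks as independent. On the left the peaks are as deposited, where the highest class has 31.4% on 3R and 55.7% on the other arms, and on the right gaps of up to 1 kb are joined. No complex was taken out of the other arms, and with its complexes included 3R had 50.0% in that class as deposited, which is not drawn.

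Chaining peaks over gaps of up to 5 kb gave 82 runs and left 226 peaks alone. Of the runs, 54 were pairs, 15 had 3 peaks, 8 had 4, and 5 had 6 or more. The 5 large runs held 36 peaks in all. Peaks standing alone had a median score of 13.82 and a median width of 318 bp. Peaks in runs had 13.08 and 356 bp, and the 68 peaks in runs of 4 or more had 12.78 and 378 bp. Of those 68, 12 (17.6%) scored 20 or more, close to the 18.8% of the whole set. Within runs the scores of adjacent peaks were hardly related in rank (Spearman -0.05 over 139 pairs), and farther apart the value was 0.05 over 307 pairs. The strongest peak stood at an end of 6 of the 13 runs of 4 or more.

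Ranking the runs by number or by summed score gave 7 runs in common among the first 10. By summed score the first were 25078383 to 25092919 (173.71), 25111377 to 25124663 (134.99) and the pair at 304195 to 305458 (113.24). The next were 21000493 to 21017789 (110.04), the pair at 3011280 to 3014353 (98.63), 11234768 to 11246281 (92.91) and the pair at 7197817 to 7204962 (77.43). After them came 24343385 to 24352673 (74.9), 7183420 to 7192419 (71.37) and 7153280 to 7158142 (66.73). The 3 pairs owed their rank to a single peak, which gave 82.6%, 91.5% and 70.6% of the sum. The median of this share over all 54 pairs was 58.4%. In the run of 9 peaks the strongest gave 15.7%, but a larger number of peaks lowers this share by itself.

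The run with the most peaks was 3R 21000493 to 21017789, and it was weak throughout. Its 9 peaks covered 3650 of 17297 bp. Its scores ran from 8.63 to 17.25 with a median of 12. It is the core of the 50 kb region 20970001 to 21020000, which held 12 peaks with a median score of 12.58 and none at 20 or more. From low to high coordinate the 12 peaks of that region scored 13.26, 14.35, 10.02, 17.25, 14.82, 9.27, 11.59, 12.0, 9.65, 13.67, 8.63 and 13.16. The highest of them therefore did not reach the upper quartile of the whole set, 18.1. Their widths were between 201 and 708 bp with a median of 322.5 bp. The last 5 peaks, from 21014649 to 21017789, were separated by gaps of less than 1 kb and joined into 1 region of 3141 bp. Just below the region lay a broader and stronger peak, 20963761 to 20965072, with a score of 25.84 over 1312 bp.

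The most populous region of the set was not uniformly weak. Between 25078383 and 25135550, over 57.2 kb, 18 peaks formed 3 runs of 8, 6 and 4 peaks. Their median score was 14.36, close to that of the set. Of the 18, 6 scored 20 or more, beside 18.8% of the whole set, a difference that was not tested. The bounds of this stretch extend beyond the 50 kb windows used here. Within the fullest 50 kb window, 25080001 to 25130000, the 13 peaks scored 9.27, 13.91, 24.71, 49.71, 18.1, 10.79, 11.86, 42.82, 38.68, 8.21, 19.09, 14.8 and 11.39 from low to high coordinate. Peaks of high and of low score were thus interspersed. Its strongest peak, 25088801 to 25089508, ranked 10 in the set. The second run of the region opened with a pair of strong broad peaks, 25111377 to 25112629 (score 42.82, 1253 bp) and 25114891 to 25115762 (38.68, 872 bp), 2261 bp apart, and its other 4 peaks scored 19.09 or less. The first run likewise opened with a strong broad peak, 25078383 to 25079570, which scored 35.36 over 1188 bp. The third, 25130236 to 25135550, had scores of 9.1, 21.96, 10.4 and 12.62.

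A further stretch with many peaks, 7170001 to 7220000, held 10 peaks with a median score of 17.01 and had the most covered length of the 5 fullest windows, 10.5 kb. Of that length, 4985 bp belonged to its widest peak. Extended downward, the stretch from 7153280 to 7216647 held 15 peaks in 63.4 kb. It contained 3 of the 10 widest peaks of the set, with widths of 4985, 1880 and 1318 bp. It also contained the weakest peak of the set, 7168680 to 7168912, with a score of 6.89. This extended stretch was chosen after its values were seen.

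The remaining windows among the 5 fullest held 8 peaks each. The window 12030001 to 12080000 had scores from 8.08 to 20.85 with a median of 12.5. In the window 24330001 to 24380000 scores ran from 8.03 to 15.48 with a median of 10.6, the lowest of the 5. That last window contains the run of 7 peaks at 24343385 to 24352673, of which 6 joined into 1 region of 4270 bp when gaps of up to 1 kb were closed. Only the peak of 4985 bp was a wider region after joining.

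**Figure D4:**
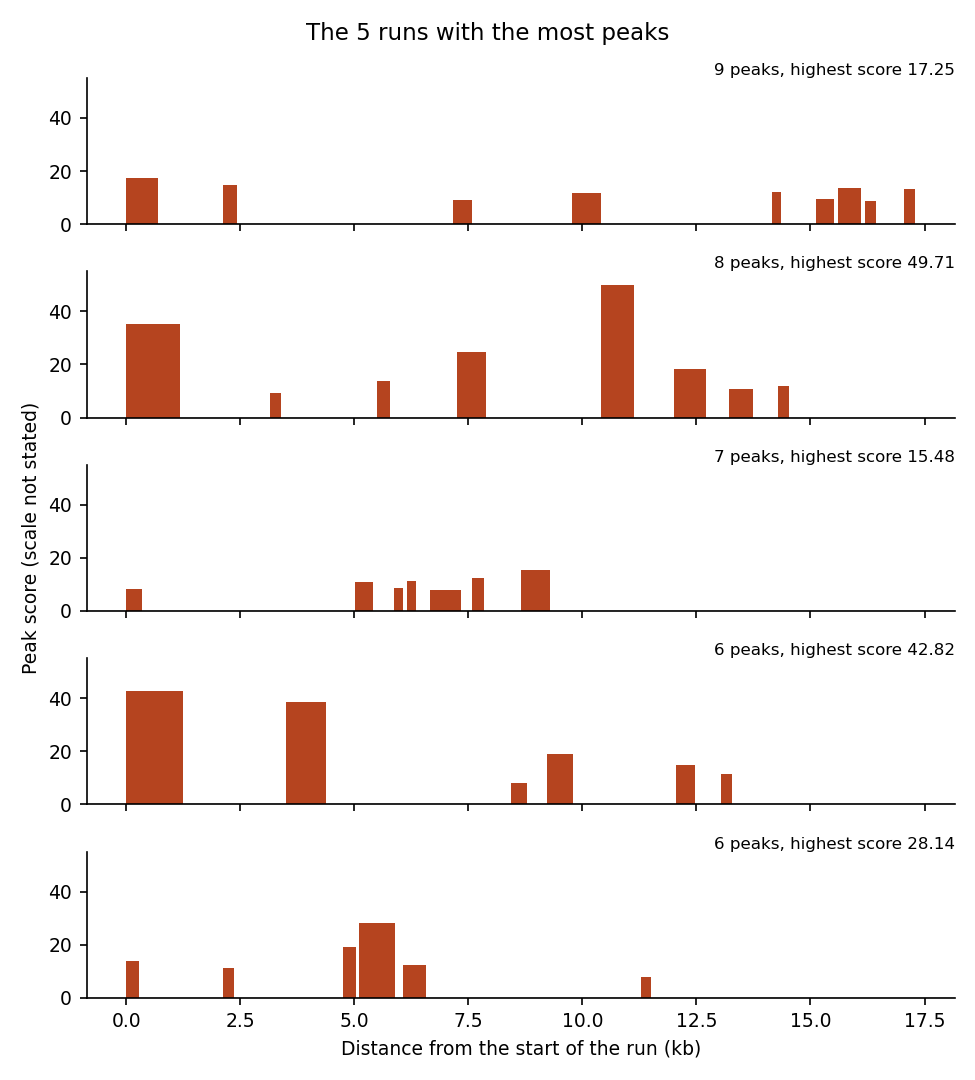
Peaks of the 5 runs with the most peaks, drawn to scale as bars from the start to the end of each peak, against the distance in kb from the start of the run, with the score as height. The run of 9 peaks at the top and the run of 7 in the middle stay below a score of 20, while the run of 8 reaches 49.71 and the first run of 6 reaches 42.82.

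Along the arm, the 23 complete bins of 1 Mb without an excluded window held 16.9 ± 8.38 peaks (SD over bins). The fullest was the first Mb of the arm with 33 peaks. It was followed by the bins from 4, 13, 24 and 25 Mb with 27 each. The emptiest was the bin from 5 Mb with 2 peaks, followed by the incomplete last bin from 27 Mb with 5, the bin from 9 Mb with 8 and the bin from 3 Mb with 9. A further 5 bins held 10. The 11 bins with 20 or more peaks together held 274 peaks, or 61.3% of the set.

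The bins differed in make-up. In the first Mb, 36.4% of the 33 peaks had a neighbour within 5 kb and the highest score was 93.48. In the bin from 24 Mb, 88.9% of 27 peaks had a neighbour, the highest score was 19.35 and the median 11.58. In the bin from 25 Mb the share was 81.5% and the highest score 49.71. The bin from 1 Mb held 12 peaks, none of them with a neighbour, and its highest score was 64.36. Median scores of the bins stayed between 10.11 (from 14 Mb) and 17.07 (from 8 Mb). Over the 23 complete bins the number of peaks and the median score had a Spearman coefficient of 0.23, given as a description of bins of 1 list. A bin with few peaks could hold a very strong one, as the 9 peaks from 3 Mb included the peak of score 90.22.

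**Figure D5:**
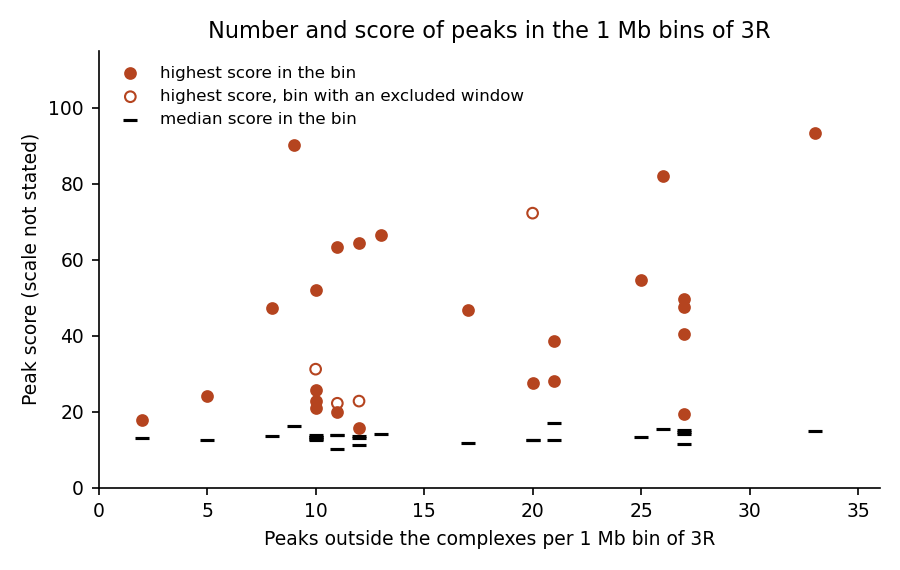
Number of 3R peaks outside the complexes in each bin of 1 Mb against the highest score (circles, open where the bin holds an excluded window) and the median score (dashes) in the bin. The medians stay between 10.11 and 17.07 at any number of peaks, while the highest scores range from 15.71 to 93.48.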

How the data were processed

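ChIP-seq was carried out on 3 Su(H) ChIP and 3 input libraries. The authors deposited 1 peak list with a score per peak; its source column names MACS and its coordinates are on FlyBase release 5, per the file headers. The submitters' processing notes name BDGP5, BWA, MACS2 and CASAVA (1.7.0.2, 1.7.0.3) without their roles. The calling threshold, any pooling of libraries and the scale of the score are not stated in these sources. Depth per library is unknown.

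Peaks were read as deposited. Membership, runs (gaps of up to 5 kb, edge to edge), windows of 50 kb moved by 10 kb and bins of 1 Mb were computed with Python 3.11.15, numpy 2.4.6 and pandas 2.3.3, and exact binomial intervals with scipy 1.17.1; these cover counting error only. Run and neighbour counts were tested on simulated data with planted runs. Peaks named are the 20 strongest, the 10 widest, the first 10 runs by summed score and by number of peaks, the 5 fullest windows that do not overlap, the fullest and emptiest bins, the 5 longest gaps and the peaks at window edges. The set, these rules and the alternatives were chosen with earlier results of these data known, and the score classes of neighbours after the values were seen. No test was run over peaks, which are not replicates. A gene table on Release 6 was not used for positions.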

Additional observations from a re-analysis of the deposited data

How the results depend on the processing

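Excluding every peak that overlaps a window left the same 447 peaks, as none straddled an edge, and so could not change any of the 7 results. Adding back the complexes (505 peaks) moved none of the 7 beyond its counting interval or 1.5 times. Among the stronger 50% of the set, 224 peaks had a median score of 18.1 and a median width of 451.5 bp, 25% had a neighbour within 5 kb, 24 runs were left and the fullest 50 kb window held 8. Among the strongest 20% these values were 90 peaks, 27, 624 bp, 11.11%, 5 runs and 5 peaks. The Spearman coefficient of score and width fell to 0.38 there, against 0.60 for the full set. Keeping fewer peaks lowers the neighbour share and the count in the fullest window by itself. Selection by score fixes the number of peaks and raises the median score by itself, and it also bears on the width and the coefficient. With gaps of up to 1 kb joined, the median score was 14.35, the median width 367 bp, the neighbour share 30.29%, the number of runs 48 and the fullest window 8. The share among peaks scoring 30 or more was then 22.86%, against 31.43% as deposited, and 50% with the complexes included, both alternatives chosen after seeing the data. The neighbour share was 38.93% at a distance of 2 kb and 70.02% at 20 kb. All 20 strongest peaks lay in the 20 strongest joined regions. This follows from the joining, as a region keeps its highest score and these peaks did not join each other. Of the 20 peaks, 8 were among the 20 strongest of all 3R peaks. A coefficient was taken as moved past a change of 0.1. Leaving out single libraries was not possible. No paired analysis was possible because 1 list serves all libraries. With depth unknown, a region without a peak cannot be called unbound.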
